A study of Mus musculus with 14 samples.

Results

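The miRNAs that mark blood vessels and red blood cells were followed in the corpus callosum of cuprizone-fed mice. They are mmu-miR-126-3p and mmu-miR-126-5p of endothelial cells, mmu-miR-143 and mmu-miR-145 of smooth muscle cells and pericytes, and mmu-miR-144, mmu-miR-451 and mmu-miR-486 of red blood cells, written hereafter without the prefix for mouse. They were chosen by their names on the array, with no threshold on their values, and are 7 of the 566 mouse miRNAs with probes. For a test, the image software had to call a miRNA detected on all arrays of some group. This filter passed 225 mouse miRNAs, 4 of the 7 among them (miR-126-3p, miR-143, miR-451 and miR-486).

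Cuprizone (CPZ), a copper chelator mixed into the food, kills oligodendrocytes and strips myelin from the corpus callosum, which is remyelinated once normal food is given again. Each sample is total RNA of the corpus callosum hybridized to 1 single-colour Agilent miRNA array. The 4 groups are untreated controls kept on a normal diet (n = 4), mice after 4 weeks of 0.2 to 0.4% CPZ in powdered chow (4wd, demyelination, n = 4), mice given regular diet for 2 days after 4 weeks of CPZ (2dr, acute remyelination, n = 4), and mice given it for 2 weeks (2wr, full remyelination, n = 2). All were labelled male, no genetic change is named for them, CPZ feeding began at 7 to 8 weeks of age, and the strain of these mice is not given in the sources used here. miRNAs of oligodendrocytes and neurons were read beside the tissue label, though their detection cannot tell the corpus callosum from other brain tissue. miR-219 and miR-338-3p of oligodendrocytes and miR-124 and miR-128 of neurons were detected on 14 of 14 arrays. The other oligodendrocyte miRNA listed, miR-338-5p, was detected on 8 of 14. The oligodendrocyte list (3 miRNAs) had a median log2 fold change against control of -1.17, -0.74 and -0.50 at 4wd, 2dr and 2wr. That of the neuron list (5 miRNAs) was 0.06, -0.30 and -0.01, beside 0.03, -0.25 and -0.08 over all 225 tested. In limma 0 miRNAs of either list were called at an adjusted p under 0.05. An unadjusted p under 0.05 was found for 2, 1 and 0 oligodendrocyte and for 0 neuron miRNAs, beside 10.2%, 12% and 0.889% of all 225 tested. The incompletely detected miR-338-5p was 1 of the 2 at 4wd and the only 1 at 2dr. Its mean log2 signal was highest in control, at -5.23 against -7.72, -7.77 and -6.30. For a miRNA missed on some arrays the filter can favour such a direction, so its lower values are a description.

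miRNAs are short RNAs that pair with messenger RNAs, chiefly through the seed near their 5′ end, and lower the amount or translation of those messages. miR-126 is made in endothelial cells from an intron of Egfl7 and is known for its part in vessel integrity, while miR-143 and miR-145 are made from 1 shared precursor and keep smooth muscle cells in a contractile state. miR-144 and miR-451 are neighbours in 1 transcript of the red cell lineage, and miR-451 is cut from its hairpin by Argonaute 2 without Dicer. miR-486 is high in red cells and in muscle. The corpus callosum holds capillaries with endothelium and pericytes, from which vessel miRNAs can come. Mature red cells are present only as the blood that remains in the vessels. Which cells gave the signals in these samples was not tested. According to the methods, mice for experiments without staining were perfused with buffered saline before the brain was taken.

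The members detected on every array and the pair made from 1 transcript are shown by their sequences, to show how close miR-144 and miR-451 lie in the genome. RefSeq sequences on GRCm38.p6 were matched by name for 3 of the 7 miRNAs. The array was designed on mm9, so no position is taken from it. Capitals in the first 2 lines mark the seed (bases 2 to 8), and in the hairpins they mark the mature miRNAs.
miR-126-3p (Mir126a, chromosome 2, 26591402 to 26591423, + strand): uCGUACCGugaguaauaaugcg
miR-451 (Mir451a, chromosome 11, 78073186 to 78073207, + strand): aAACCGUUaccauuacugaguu
Mir144 hairpin (chromosome 11, 78073005 to 78073070, + strand): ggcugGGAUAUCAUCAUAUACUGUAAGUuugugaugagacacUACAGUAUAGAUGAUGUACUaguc
Mir451a hairpin (chromosome 11, 78073170 to 78073241, + strand): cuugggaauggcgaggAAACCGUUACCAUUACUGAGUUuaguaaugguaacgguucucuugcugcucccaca
The 2 hairpins are 99 bases apart on the same strand. The Mir144 hairpin carries a mature miRNA on each arm, and the array's name miR-144 does not say which arm its probes read. The mature miR-451 runs from the stem into the loop of its hairpin. No other of the 1679 mature mouse miRNAs in the reference table shares the seed of miR-126-3p, of miR-451 or of either arm of miR-144.

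The total signal of a miRNA is the brightness summed over its probes after background subtraction, in arbitrary units, and detection is the call of the image software. Unscaled, the miRNAs formed a bright pair and 5 dim ones. miR-126-3p gave 143 to 745 units and miR-451 gave 70.4 to 603 units over the 14 arrays, and both were detected on all of them. The other 5 never exceeded 57.3 units, which miR-143 reached on one 2wr array. miR-143 was detected on 12 of 14 arrays and miR-486 on 9, miR-126-5p and miR-145 on 6 each, and miR-144 on 0 of 14. Brightness also depends on the probe, so it does not rank the miRNAs by amount.

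Detection of the dim miRNAs followed the slide. The arrays came from 2 slides of the array format, 8 arrays on slide 1 (2 control, 2 of 4wd, 3 of 2dr and 1 of 2wr) and 6 on slide 2 (2 control, 2 of 4wd, 1 of 2dr and 1 of 2wr). miR-126-5p was detected on 6 of 6 arrays of slide 2, where it gave 5.01 to 38.2 units, and on 0 of 8 of slide 1, where it gave -1.73 to 2.48. miR-145 was likewise detected on 6 of 6 arrays of slide 2, with 14.7 to 26.6 units, and on 0 of 8 of slide 1, with -3.89 to 4.55. Neither miRNA had overlapping signals between the slides. miR-486 was detected on 6 of 6 arrays of slide 2 and 3 of 8 of slide 1, and miR-143 on 6 of 6 and 6 of 8. For miR-126-3p and miR-451 the medians of the slides were close, with 368 and 369 units for miR-126-3p and 224 and 242 for miR-451. On the scaled values used for the tests, slide 2 minus slide 1 was -0.52 for miR-451 (95% interval -0.95 to -0.10, limma with group and slide as terms, adjusted p = 0.0594) and -0.29 for miR-126-3p (95% interval -0.65 to 0.07, adjusted p = 0.201), both lower on slide 2, while miR-143 and miR-486 were higher there.

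**Figure D1:**
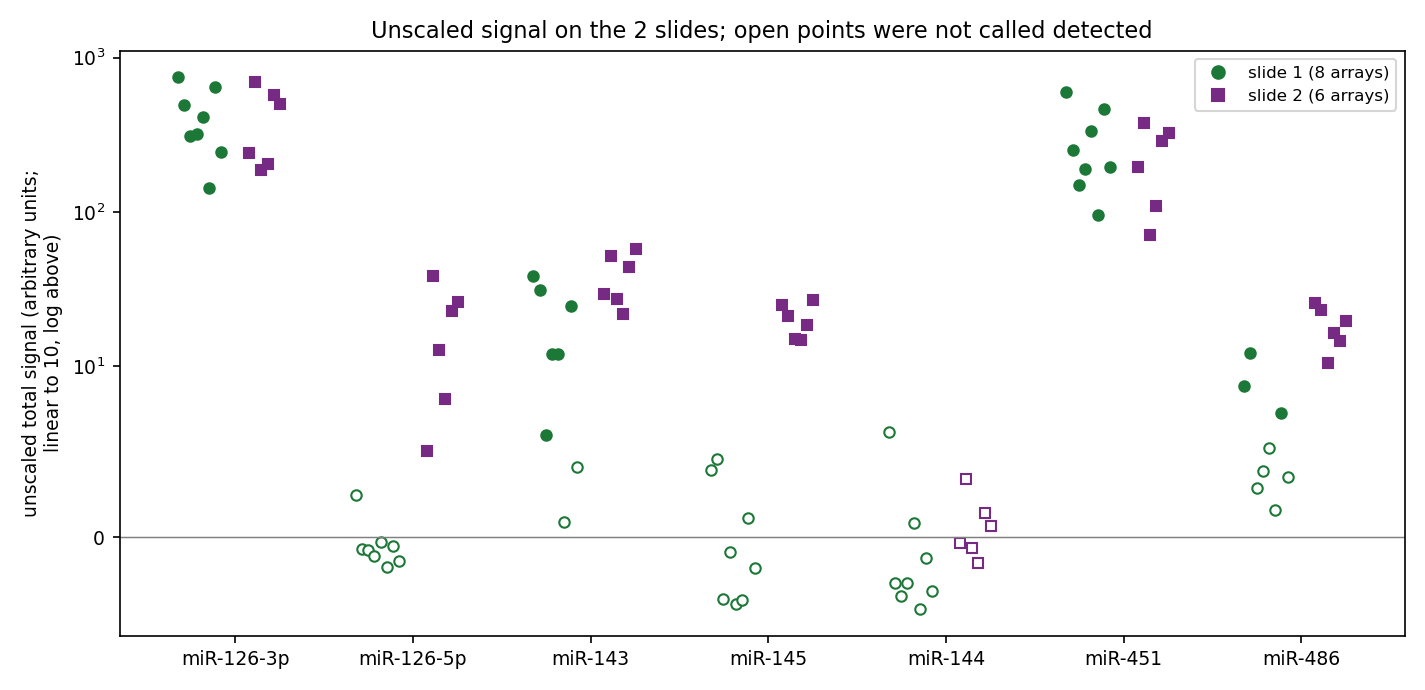
Unscaled total signal (vertical axis, arbitrary units, linear up to 10 and logarithmic above) of the 7 miRNAs on the 8 arrays of slide 1 (circles) and the 6 of slide 2 (squares), with open symbols where the miRNA was not called detected. miR-126-5p and miR-145 are open on all 8 arrays of slide 1 and filled on all 6 of slide 2, miR-144 is open on all 14, and miR-126-3p and miR-451 cover like ranges on both slides.

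Over all mouse miRNAs, an array's signals added up to between 45664 and 173924 units, so signals were compared after scaling. The 170 miRNAs that no array missed set the scale: each total signal was divided by their 75th percentile on its array and put on the log2 scale, with values below a floor of -9.15 raised to it. A value of 0 is thus the 75th percentile, and a difference of 1 is 2-fold. Groups were compared with limma in 1 fit over the 14 arrays, and a call needed a difference of 2-fold or more and an adjusted p (Benjamini-Hochberg) below 0.05. None of the 4 tested miRNAs was called in any of the 5 comparisons, and in this fit none had an unadjusted p under 0.05. With the slide added to the fit, miR-486 at 2dr against control had an unadjusted limma p of 0.0374 (adjusted p = 0.316). miR-486 passed the filter through control only, which favours lower values elsewhere, so this p is not read as a result. The share of all 225 under 0.05 in that fit was not counted. Under 1 alternative, normexp background correction with an offset of 50, miR-143 and miR-486 were called as higher at 4wd. That setting called 81 of all 225 there, and the median log2 fold change of the 225 was 0.82. In the fit without that correction, limma called 0.444% of all 225 in the 4wd comparison with control. For 2dr and 2wr it called 0.889% and 0% against control, and 0% each against 4wd. At an unadjusted p under 0.05 these shares were 10.2%, 12%, 0.889%, 18.2% and 4.89%. The joint F test over the 4 groups called 0.444% of the 225 and none of the 4, whose adjusted p from limma ran from 0.703 to 0.993, and the methods' test called none of them either.

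**Figure D2:**
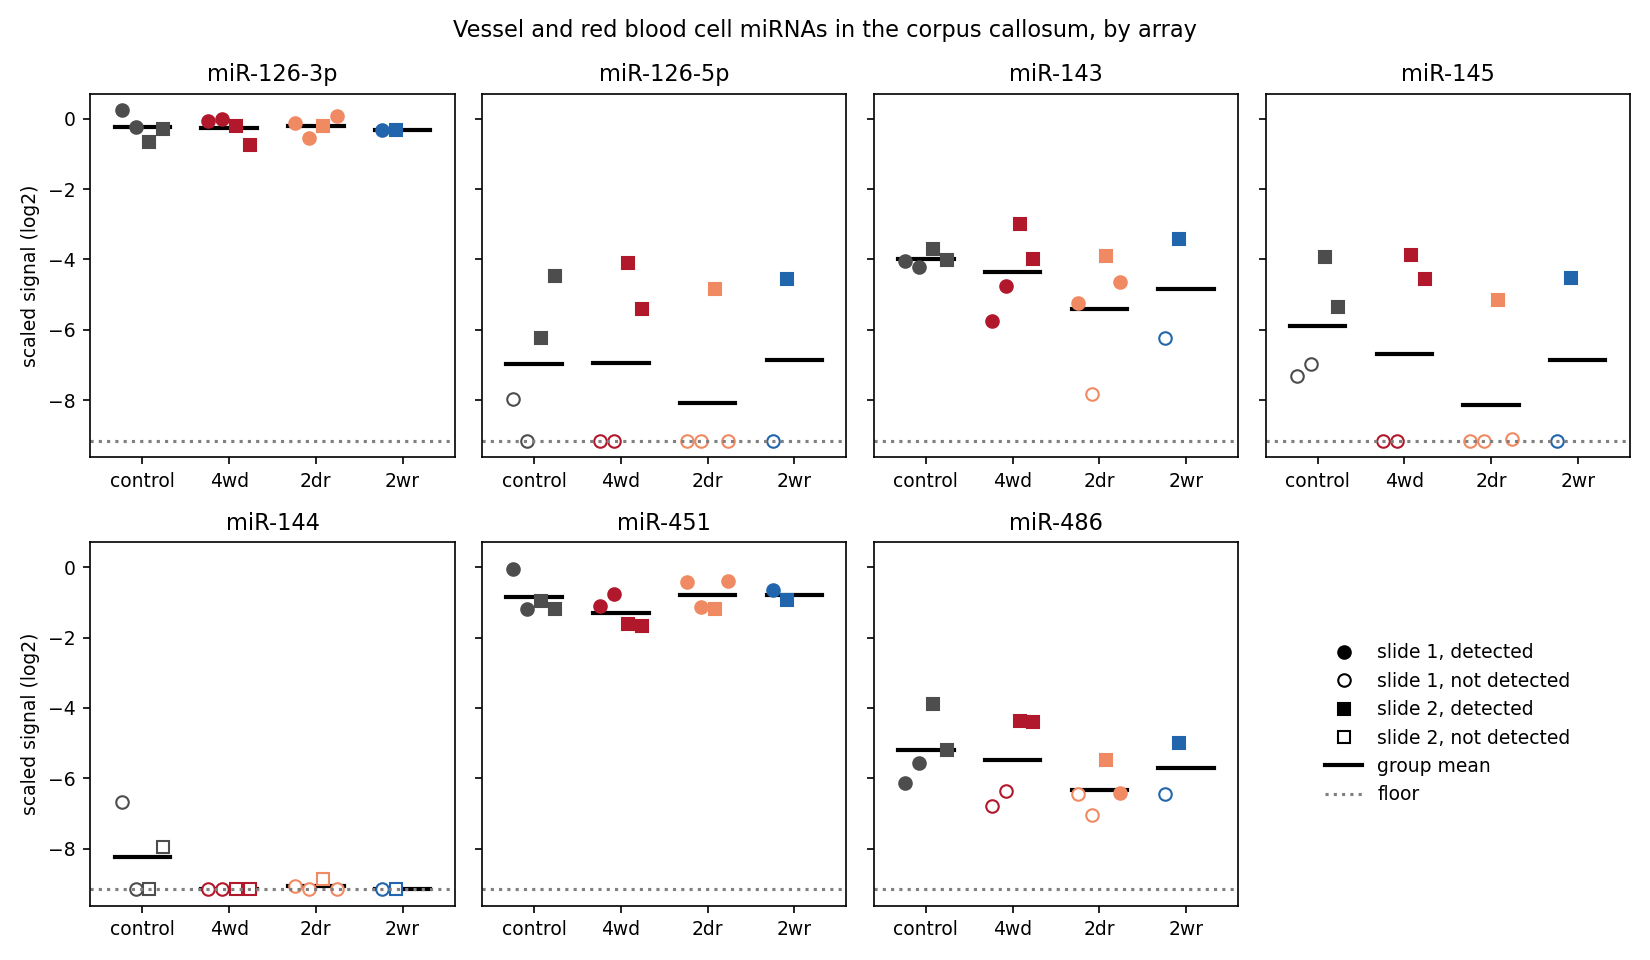
Scaled signal (vertical axis, log2, where 0 is the 75th percentile of the array) of each of the 7 miRNAs by group, 1 point per array, with circles for slide 1, squares for slide 2, open symbols where the miRNA was not detected, a bar at the group mean and a dotted line at the floor of -9.15. miR-126-3p lies between -0.75 and 0.25 and miR-451 between -1.66 and -0.06 over the 14 arrays, and miR-126-5p and miR-145 are split by slide within every group.

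miR-126-3p, the endothelial miRNA, was nearly level across the 4 groups. On the scaled log2 scale, control replicates 1 to 4 gave 0.25, -0.22, -0.66 and -0.29, and the 4wd replicates gave -0.05, 0.00, -0.22 and -0.75. The 2dr replicates gave -0.12, -0.55, -0.20 and 0.07, and the 2wr replicates -0.32 and -0.31. The highest and the second lowest of the 14 values both came from control, and of the other groups only 4wd replicate 4 lay outside the control range. Control averaged -0.23 ± 0.37 (SD, n = 4) and 4wd -0.26 ± 0.34 (SD, n = 4), while 2dr averaged -0.20 ± 0.26 (SD, n = 4) and 2wr -0.32 ± 0.0021 (SD, n = 2). Against control limma gave a log2 fold change of -0.03 ± 0.24 (standard error) at 4wd with an adjusted p of 0.981. It gave 0.03 ± 0.24 at 2dr and -0.09 ± 0.30 at 2wr, with adjusted p of 0.964 and 0.996.

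The intervals of miR-126-3p were the narrowest of the 4 tested. The 95% interval of the log2 fold change ran from -0.55 to 0.50 at 4wd, from -0.49 to 0.55 at 2dr and from -0.73 to 0.55 at 2wr, or as folds from 0.684 to 1.41, 0.711 to 1.47 and 0.605 to 1.47. A 2-fold difference in either direction lay outside each of these intervals, which hold for the scaled values. With the slide added to the fit as a block, the log2 fold changes were -0.03, -0.04 and -0.09. Within slides the mean difference from control was -0.04 on slide 1 and -0.01 on slide 2 at 4wd, and -0.21 and 0.28 at 2dr. The 2 probes of miR-126-3p, each printed on 10 spots, gave differences of -0.05 and -0.01 at 4wd.

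Other miRNAs that endothelial cells hold in plenty were listed from general knowledge. Of 10 such miRNAs on the array (the miR-23, miR-24 and miR-27 family clusters, miR-10a, miR-10b, miR-130a, miR-221 and miR-222), 8 were tested and 0 were called in limma in any comparison, with 1 each at 4wd and 2dr and 0 at 2wr against control at an unadjusted p under 0.05. Their median log2 fold changes in these comparisons were 0.19, 0.06 and 0.12, beside 0.03, -0.25 and -0.08 over all 225 tested. Single members spread from -0.54 to 0.41 at 4wd, from -0.92 to 0.58 at 2dr and from -0.33 to 0.35 at 2wr. miR-24 had log2 fold changes of 0.09, 0.20 and 0.13 and miR-23b of -0.24, -0.07 and -0.05. Most of these miRNAs are made by other brain cells too, so the list is less specific than miR-126-3p.

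miR-126-5p, the other arm of the miR-126 hairpin, could be read on slide 2 only. There it gave scaled log2 values of -6.24 and -4.47 in the 2 control arrays, -4.10 and -5.42 at 4wd, -4.85 at 2dr and -4.57 at 2wr. The control arrays were the lowest and the second highest of the 6, so the groups were not apart. The image software's own error on these values reached 42.4% of the signal, against 7.40% at most for miR-126-3p.

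miR-143 and miR-145, the pair of smooth muscle cells and pericytes, were dim. Scaled miR-143 was -4.04, -4.20, -3.69 and -4.03 in control replicates 1 to 4 and -5.76, -4.75, -2.99 and -3.98 at 4wd. At 2dr it was -5.23, -7.83, -3.91 and -4.65, and at 2wr -6.23 and -3.43, where the values -7.83 and -6.23 are from arrays on which it was not detected. Control varied least, with an SD of 0.21 (n = 4) against 1.17 (n = 4), 1.71 (n = 4) and 1.98 (n = 2), and at 4wd and 2wr arrays lay both above and below all controls. The limma log2 fold change against control was -0.38 ± 0.83 (standard error) for 4wd, -1.42 ± 0.83 for 2dr and -0.84 ± 1.0 for 2wr, with adjusted p of 0.965, 0.438 and 0.996 in that order. miR-143 passed the filter through control and 4wd, not through 2dr or 2wr. Since this favours high values in control and 4wd, the lower values at 2dr and 2wr are a description. At 2dr 3 of 4 arrays lay below all controls (exact two-sided permutation p = 0.114, where 4 arrays against 4 allow no less than 0.0286). Without 2dr replicate 2, on which it was not detected, the difference was -0.61. Normexp background correction turned the 4wd difference to 1.06 (limma adjusted p = 0.0341), where the median of all 225 was 0.82.

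The differences of miR-143 were not alike on the slides. On slide 1 its mean lay below control by a log2 difference of -1.13, -1.79 and -2.11 in 4wd, 2dr and 2wr. On slide 2 the differences were 0.38, -0.05 and 0.43. Over the groups slide 2 exceeded slide 1 by 1.52 (limma with group and slide as terms, adjusted p = 0.0411). An adjusted p under 0.05 for the slide was found for 30.7% of the 225 miRNAs, in either direction. With slide as a block the 2dr difference was -1.04 (95% interval -2.49 to 0.41). Whether the differences of the slides were themselves unequal was not tested.

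miR-145 was readable on slide 2 alone, with scaled log2 values of -3.93 and -5.34 in control, -3.87 and -4.55 at 4wd, -5.16 at 2dr and -4.54 at 2wr. The controls spanned all but the highest of these 6 values. Among 8 further miRNAs of muscle and mesenchymal cells that were listed (miR-1, miR-133, miR-199, miR-214 and others), 7 had a probe under their name and 1 was tested. This was miR-133b, with log2 fold changes of 0.04 at 4wd, -1.07 at 2dr (limma standard error 0.43, adjusted p = 0.368) and -0.18 at 2wr. At 2dr its unadjusted limma p was 0.0283, where 12% of all 225 tested were under 0.05. It was detected on 12 of 14 arrays and its mean was lowest at 2dr (-6.21), so missing detection limits its values.

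miR-451 was the bright miRNA of red blood cells, and it was lowest on average at 4wd without passing the test. Scaled values were -0.06, -1.17, -0.95 and -1.17 in control replicates 1 to 4, and -1.10, -0.76, -1.63 and -1.66 at 4wd. The 2dr replicates gave -0.42, -1.13, -1.18 and -0.40, and the 2wr replicates -0.65 and -0.93. The 2 lowest of the 14 values were both 4wd arrays of slide 2, the highest was control replicate 1, and the other 4wd arrays lay within the control range. Control averaged -0.84 ± 0.53 (SD, n = 4) and 4wd -1.29 ± 0.43 (SD, n = 4), while 2dr averaged -0.78 ± 0.43 (SD, n = 4) and 2wr -0.79 ± 0.20 (SD, n = 2). In tissue RNA, fewer cells of a type and less RNA per cell cannot be told apart.

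Against control, the limma log2 fold change of miR-451 was -0.45 ± 0.31 (standard error) at 4wd, with an adjusted p of 0.617 and an exact two-sided permutation p of 0.257. It was 0.06 ± 0.31 at 2dr and 0.05 ± 0.39 at 2wr, with limma adjusted p of 0.939 and 0.996. The 95% interval was -1.13 to 0.23 at 4wd, which includes a 2-fold lower level. At 2dr it was -0.63 to 0.74 and at 2wr -0.78 to 0.88, and both leave a 2-fold difference outside. Against 4wd, the log2 fold change was 0.50 at 2dr (limma adjusted p = 0.402, exact permutation p = 0.171) and 0.50 at 2wr (limma adjusted p = 0.962, exact permutation p = 0.267, where 2 arrays against 4 allow no less than 0.133). These comparisons share the 4wd arrays with the first, so they are not further evidence of a low level there.

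The 4wd value of miR-451 had the same sign on both slides and by both probes, but not under every setting: normexp background correction brought it to 0.0035, where the median of all tested was 0.82. The difference from control was -0.32 on slide 1 and -0.58 on slide 2, and with slide as a block the estimate was -0.45 (95% interval -0.99 to 0.10, limma adjusted p = 0.377). The probes gave -0.43 and -0.46. Dropping 1 array at a time, the difference ran from -0.62 to -0.19, the latter without control replicate 1, the highest array. Before scaling, the 4wd arrays gave 70.4 to 190 units and the controls 195 to 603, which do not overlap. The same was true of miR-143, with 5.95 to 27.4 units at 4wd and 29.3 to 52.0 in control, and of 23.1% of all tested miRNAs, all lower at 4wd. Unscaled miR-451 was also apart between 2wr (195 and 325 units) and 4wd, as 8.44% of tested miRNAs were with 2wr higher. After scaling, none of the 4 tested miRNAs had groups that were apart in any comparison, while 8.89% of all tested did at 4wd, 5.78% at 2dr and 6.67% at 2wr against control, 8.44% for 2dr against 4wd and 14.2% for 2wr against 4wd.

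**Figure D3:**
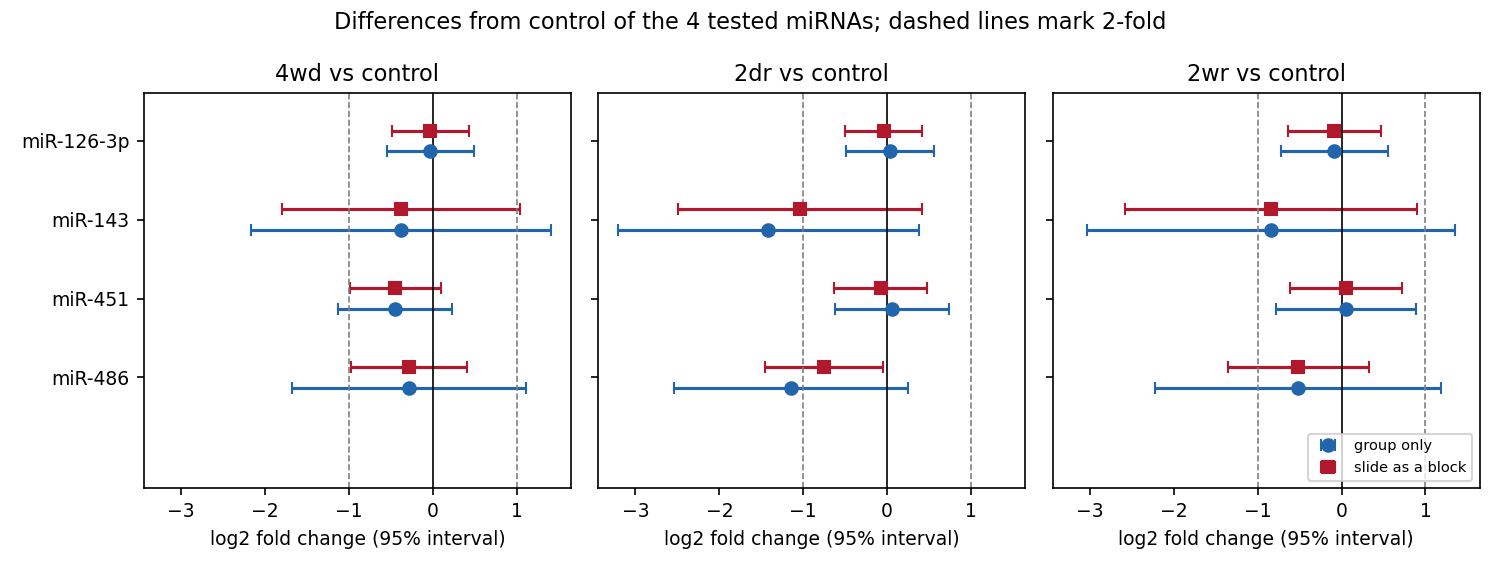
Log2 fold change against control (horizontal axis, with its 95% interval) of the 4 tested miRNAs at 4wd, 2dr and 2wr, fitted with group only (blue circles) and with slide as a block (red squares), with dashed lines at a 2-fold difference. The intervals of miR-126-3p lie inside the dashed lines in all 3 panels, those of miR-451 do so at 2dr and 2wr, and those of miR-143 and, with group only, miR-486 cross at least 1 of them throughout.

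miR-451 was also set against miR-126-3p on the same array, which takes the scaling out. Only differences of this ratio between groups can be read, since the probes differ in brightness. The log2 ratio averaged -0.61 ± 0.36 (SD, n = 4) for control and -1.03 ± 0.28 (SD, n = 4) for 4wd, against -0.59 ± 0.29 (SD, n = 4) for 2dr and -0.48 ± 0.20 (SD, n = 2) for 2wr. The ranges were -0.95 to -0.30 in control and -1.41 to -0.76 at 4wd, so they overlapped.

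**Figure D4:**
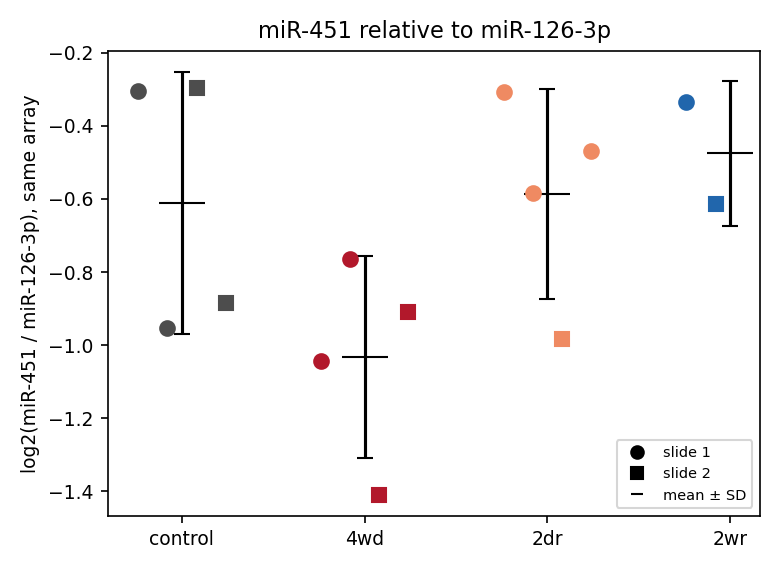
Log2 ratio of the total signals of miR-451 and miR-126-3p on the same array (vertical axis) by group, with 1 point per array, circles for slide 1, squares for slide 2, and mean ± SD in black. The 4wd arrays lie between -1.41 and -0.76 and the controls between -0.95 and -0.30.

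miR-144, which shares its transcript with miR-451, was not detected on any array. Its signal was -4.19 to 6.13 units, on both slides and in all groups, and 10 of its 14 scaled values were at the floor. Both of its probes had medians between -1.19 and 0.17 units on each slide. The hairpins 99 bases apart thus gave 1 miRNA with 70.4 units or more on every array and 1 below the detection call throughout. No ratio is given, because a signal around 0 sets no level and the probes differ.

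miR-486 was dim and passed the filter only through control, where it was detected on 4 of 4 arrays, while 4wd and 2dr each had it on 2 of 4 arrays and 2wr on 1 of 2. A miRNA that enters in this way starts with a high control group, so its low values elsewhere are a description. Scaled values were -6.15, -5.56, -3.89 and -5.20 in control replicates 1 to 4, and -6.79, -6.37, -4.37 and -4.39 at 4wd. At 2dr they were -6.43, -7.05, -5.48 and -6.41, and at 2wr -6.45 and -4.99. At 2dr 3 of 4 arrays lay below all controls, and at 4wd and 2wr the groups overlapped with control more widely. The limma log2 fold change against control was -0.28 ± 0.64 (standard error) for 4wd, -1.14 ± 0.64 for 2dr and -0.52 ± 0.79 for 2wr, with adjusted p of 0.965, 0.437 and 0.996 in that order. Without control replicate 3 the 2dr difference was -0.71. Since the filter favours a high control group, the negative differences from control are not read as results, and the setting of normexp background correction turned that at 4wd to 1.23 (limma adjusted p = 0.0341), where the median of all tested was 0.82.

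Slide 2 exceeded slide 1 for miR-486 by a log2 difference of 1.57 (limma with group and slide as terms, adjusted p = 0.000743), more than any of its differences between groups. Within slides the 2dr difference from control was -0.78 on slide 1 and -0.94 on slide 2, where 2dr has 1 array. With slide as a block it was -0.75.

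Of 4 other miRNAs that are plentiful in red blood cells and also present in other cells (miR-16, miR-25, miR-92a and miR-185), all were tested and 0 were called in limma at 4wd, 2dr or 2wr, with 0, 1 and 0 at an unadjusted p under 0.05. Their medians against control were -0.03, 0.26 and 0.13, beside 0.03, -0.25 and -0.08 over all tested. At 4wd they were not alike: the log2 fold change was -0.57 for miR-16, 0.65 for miR-92a, 0.01 for miR-185 and -0.07 for miR-25. At 2dr it was 0.15, 0.97, -0.14 and 0.36 in the same order, of which that of miR-92a was the widest (limma standard error 0.37, adjusted p = 0.368), and at 2wr 0.18, 0.52, -0.13 and 0.09. Markers of white blood cells were also read, since blood would carry them. Of miR-142-3p, miR-142-5p, miR-150 and miR-223, all but miR-142-5p were tested and 0 were called in limma, with 1, 1 and 0 at an unadjusted p under 0.05. Their medians against control were -0.05, 0.03 and 0.36. miR-150 was detected on 14 of 14 arrays, miR-142-3p on 11 and miR-223 on 8. Missing detection limits the values of miR-142-3p and miR-223. The unadjusted p under 0.05 at 4wd and at 2dr was that of miR-142-3p. Its scaled mean was lowest in control, at -5.99 against -4.30 at 4wd, -3.31 at 2dr and -4.17 at 2wr. For a miRNA missed on some arrays the filter can favour such a direction, so its differences from control are a description. miR-150 had log2 fold changes of -0.05, -1.16 and -0.04, miR-223 of -0.91, 0.03 and 0.36, and miR-142-3p, which microglia hold as well, had 1.69, 2.69 and 1.83 (adjusted p = 0.428, 0.201 and 0.996 from limma). Their part in the values of miR-451 and miR-486 was not tested.

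The vessel and red cell miRNAs were set against each other over arrays, in 10 relations with p adjusted over them. miR-126-3p and miR-451, after each group's mean was taken off, correlated with a Pearson r of 0.75 (permutation p = 0.00208, adjusted 0.0208) and a Spearman rho of 0.75 (permutation p = 0.00265, adjusted 0.0265) over 14 arrays. Without the 2 arrays farthest from the median of miR-126-3p, r was 0.61. All correlations within slides kept the group means in, unlike those over 14 arrays, so they are not the same measure. Between miR-126-3p and miR-451, r was 0.69 on slide 1 (n = 8, exact permutation p = 0.0531) and 0.13 on slide 2 (n = 6, exact permutation p = 0.814). On slide 1 it was 0.28 without the 2 farthest arrays. With group means kept in, the relation was thus not seen within slide 2 and rested on few arrays within slide 1. Whether it holds within each slide with group means taken off was not tested. Both miRNAs carry the same scaling constant of their array. miR-126-3p and miR-126-5p had r = 0.82 on slide 2 (n = 6, exact permutation p = 0.0514, adjusted 0.133), which was -0.03 without the 2 farthest arrays. miR-143 and miR-145 had r = 0.72 there (n = 6, exact permutation p = 0.103, adjusted 0.206) and 0.82 without the 2 farthest. miR-126-3p and miR-143 had r = 0.10 over 14 arrays (permutation p = 0.735, adjusted 0.814), 0.83 on slide 1 (n = 8, exact permutation p = 0.0112, adjusted 0.0561, and 0.41 without the 2 farthest) and 0.36 on slide 2 (n = 6, exact permutation p = 0.507, adjusted 0.814). The red cell miRNAs miR-451 and miR-486 had r = 0.15 on slide 1 (n = 8, exact permutation p = 0.732) and -0.21 on slide 2 (n = 6, exact permutation p = 0.653), both with an adjusted p of 0.814. Without the 2 arrays farthest from the median of miR-451, r was 0.85 on slide 1 (n = 6) and 0.70 on slide 2 (n = 4), so these values rest on few arrays. On slide 1, miR-486 was detected on 3 of 8 arrays. The relation of miR-144 with miR-451 could not be computed, since miR-144 was not detected.

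The miRNAs most like each bright member across the 14 arrays, each value centred on its slide, were found by Pearson r among the other 169 miRNAs detected on all arrays. For miR-126-3p they were miR-101b with r = 0.90, miR-98 with 0.83 and miR-9* with 0.81, and miR-451 came at place 38 with 0.49. For miR-451 they were miR-100 with 0.76, miR-195 with 0.75 and miR-322 with 0.73, and miR-126-3p came at place 20. The arrays share scaling constants and groups, so these are descriptions of likeness over 14 arrays.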

How the data were processed

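Per the file headers the deposited values are intensity, linear and not normalized between arrays, made by Feature Extraction 10.5.1.1 (the methods name another version), which took off background, added up a miRNA's probes and made the detection calls. The authors also deposited log2 values for these arrays, used here as an alternative. Those cover 560 mouse miRNAs.

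The members and lists were chosen with earlier results of these data known. Slides were read from the array barcodes. Signals were divided by the 75th percentile over 170 miRNAs, set to a floor (0.00176 before log2) and taken to log2. Control spots and 10 viral miRNAs were left out. limma 3.58.1 in R 4.3.3 fitted 4 groups over 225 miRNAs (lmFit, contrasts.fit, eBayes). Exact permutation tests used scipy 1.17.1, and correlations over 14 arrays used 100000 resamples. The fit was tested on simulated data. The methods describe the arrays as data from several mice per group, more than the 2 arrays of 2wr used here, while the labels do not tie each replicate to a mouse of its own, so p-values measure the spread between samples. The number of arrays limits the precision. Named were the 7 members, up to 4 miRNAs of each list by signal, and the 3 miRNAs most like each member detected on all arrays. No column of other samples was found. Alternatives were other signals, background corrections, scalings, filters, floors and tests, slide and replicate as blocks, and each array left out. Normexp was run on the spots' median signal, in place of the mean signal planned. The qPCR, knockout, proteome and histology experiments were not analysed here.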

Additional observations from a re-analysis of the deposited data

How the results depend on the processing

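No setting called miR-126-3p or miR-451 in any comparison, over 12 alternatives and each array left out in turn. Of 230 values of the 4 tested miRNAs under the 12 alternatives, 24 had the opposite sign to the value reported, and 2 were called, both under normexp background correction with an offset of 50. There, at 4wd against control, all tested miRNAs had a median of 0.82, miR-143 was at 1.06, miR-486 at 1.23 and miR-451 at 0.0035. At 2dr normexp gave 0.085 for miR-143 and 0.19 for miR-486, and at 2wr 0.19 and 0.21. The cause was not tested. The 75th percentile over all mouse miRNAs gave 0.089 for miR-126-3p at 2wr against control and 0.16 against 4wd, and the authors' processed values gave 0.057 and 0.16. The same 2 settings moved miR-126-3p at 2dr against control to 0.31 and 0.29, miR-451 to 0.34 and 0.32, and miR-451 at 2dr against 4wd to 0.83 and 0.84, while the median of all tested at 2dr against control moved from -0.25 to 0.03 and 0.0095. With slide as a block, miR-126-3p at 2dr was -0.042 against control and -0.016 against 4wd, and miR-451 was -0.076 against control. Without scaling, chosen after seeing the data, the median of all tested at 4wd was -0.93, at 2dr -0.66 and at 2wr -0.49, miR-126-3p and miR-451 were -1.0 and -1.42 at 4wd, miR-126-3p was -0.37 at 2dr against control and 0.50 at 2wr against 4wd, miR-451 was -0.35 at 2dr and -0.37 at 2wr against control, and miR-143 and miR-486 were 0.090 and 0.32 at 2wr against 4wd.

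With the replicate block, miR-451 at 2wr against control was -0.15, miR-486 0.20, and against 4wd miR-143 was 0.25 and miR-486 0.48. The block called 2 miRNAs over the 4 groups and changed no call of a member. The 2wr arrays are numbered 1 and 2 here, as in their titles, while another label numbers them 5 and 6, and the 2wr values of the block and the number of pairs rest on that choice. Same numbers were not read as pairs in the values reported. Of 18 same-numbered pairs of arrays, 13 correlated above 0.1, and the lowest was at -0.61. Among arrays of other groups, 8 of the 14 arrays correlated best with one of their own number. Since 13 of the same-numbered pairs also share a slide, these values do not separate number from slide, and whether the numbers mark pairs was not tested.

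Counts of all miRNAs called at 4wd against control were 1 in the values reported, 81 under normexp, and 0 with the mean of the spots' signal, quantile normalization, no filter, a filter on detection on every array, a higher floor, no scaling and the methods' test. At 2dr the count was 2, and it was 1 with no filter, that stricter filter and the higher floor, and 0 under normexp, no scaling and the methods' test. At 2wr it was 0, and 1 with the percentile over all miRNAs, slide as a block and the authors' values. Over the 4 groups it was 1, and 0 under normexp, no filter, a filter on detection on every array, the higher floor, no scaling and the methods' test. With each array left out, the counts ran from 0 to 1 at 4wd, at 2wr and over the 4 groups, and from 1 to 2 at 2dr.

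With each array left out, log2 fold changes of miR-126-3p against control ran from -0.17 to 0.14 at 4wd, from -0.11 to 0.19 at 2dr and from -0.23 to 0.074 at 2wr, and from -0.11 to 0.17 at 2dr and -0.23 to 0.026 at 2wr against 4wd. Those of miR-451 ran from -0.073 to 0.32 at 2dr and -0.089 to 0.31 at 2wr against control, those of miR-143 from -0.84 to 0.086 at 4wd and -2.24 to 0.56 at 2wr against control and -1.86 to 0.93 at 2wr against 4wd, and those of miR-486 from -0.65 to 0.15 at 4wd and -1.25 to 0.21 at 2wr against control and -0.96 to 0.49 at 2wr against 4wd. Where 2wr lost an array, the lone one was assumed to vary like the other groups. Low signal over background limits miR-143, miR-486, miR-126-5p and miR-145.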
